A study of Mus musculus with 15 samples.

Results

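Ventricular cardiomyocytes of wild-type C57BL/6 mice at postnatal day 3 (P3, n = 4) were compared with those at postnatal day 1 (P1, n = 4). The comparison took the 8 neonatal libraries of a series of 15, and the other 7, from adults of 8 to 12 weeks, enter below only as side values. The deposited table held 9666 rows in units of RPKM, a read number scaled to gene length and to the size of the library, and the 9189 rows that reached 1 RPKM in at least 4 neonatal libraries were tested. The labels give the same strain, genotype and tissue (heart) to both groups, and no treatment, so that age is the labelled difference. They do not say whether a library came from 1 animal or from pooled litters, nor how the cells were isolated, and their protocol speaks of RNA from heart tissue as well as from cells. The p-values below therefore speak only of how far these 8 samples spread, and that spread may be technical.

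In the days after birth, mouse heart muscle cells leave the phase in which they still divide, rebuild their sarcomeres from fetal to adult protein forms, and turn from glucose to fatty acids as the main fuel. The natriuretic peptides, which the fetal ventricle makes, are known to decline after birth. Heart tissue also holds endothelial cells of the capillaries, fibroblasts, mural cells and macrophages, and isolated cardiomyocytes can carry some of them along.

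Cell type markers were described first. The lowest deposited RPKM was 0.1001, so every gene in the table is above 0 in every library by construction, and presence alone checks no label. The summed RPKM of the 16 cardiomyocyte markers in the table ran from 6048 to 14080 in P1 and from 775 to 6915 in P3. These markers included the fetal and adult myosins Myh7 and Myh6, the troponins Tnnt2 and Tnni3 and titin, Ttn. The 14 endothelial markers in the table summed to between 413 and 936 RPKM in P1 and between 1422 and 3220 in P3. In P3 replicates 2 to 4 the endothelial sum was thus above the cardiomyocyte sum, at 1629 against 1591, 2427 against 843 and 3220 against 775 RPKM. The endothelial sum includes Fabp4, also an adipocyte marker. Fabp4 and the weakly expressed Pparg together summed to between 454 and 1231 RPKM in P3. The order in P3 replicate 2 therefore rests on Fabp4, while the gaps in replicates 3 and 4 are wider than that sum. The 8 fibroblast markers summed to 1611 RPKM in P1 replicate 1 and to between 229 and 247 in the other P1 libraries, with 447 to 867 in P3. Of 6 mural and smooth muscle markers 1 fell, Des, which heart muscle shares, and 0 rose (median 0.67). None of 20 immune and none of 10 epicardial markers was in the table, so these cells were not analysed here. In bulk samples, fewer cells of a type and less RNA per cell cannot be told apart, and this holds for every gene below.

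**Figure D1:**
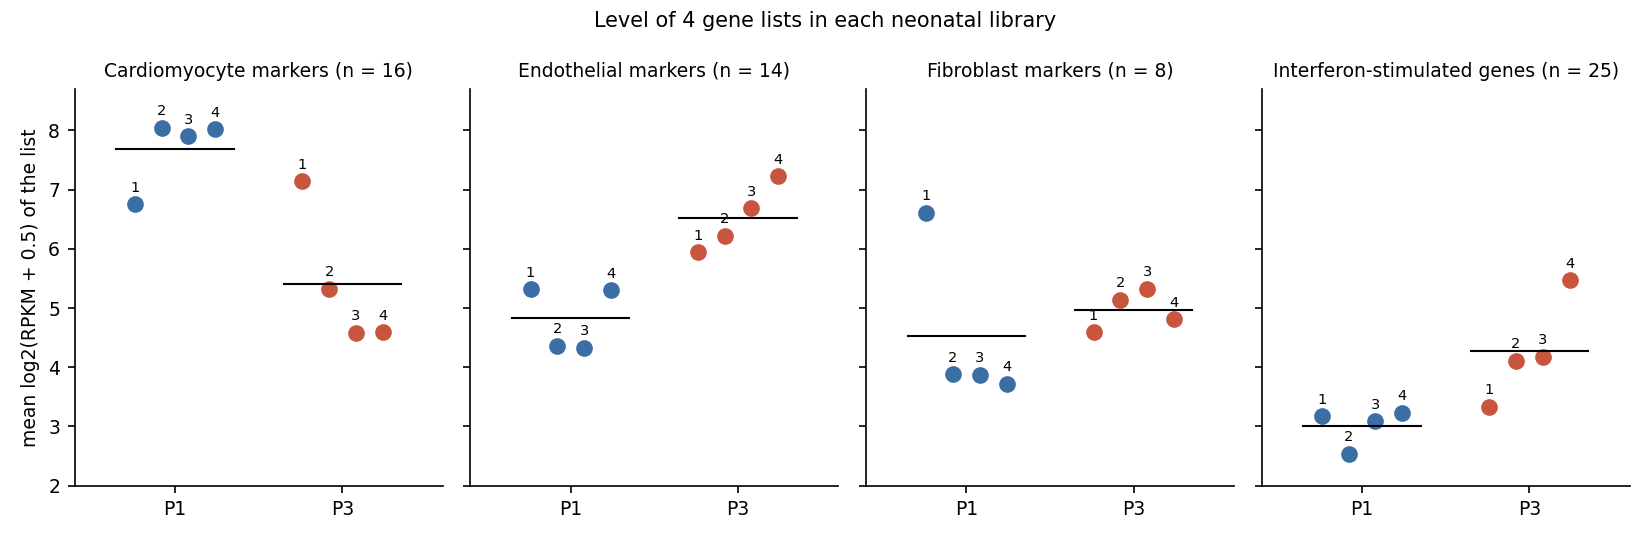
Mean log2(RPKM + 0.5) of 4 gene lists in each neonatal library, with n the number of tested genes, the digit beside a point its replicate number and the line the mean of the 4 libraries. P1 replicate 1 (6.75) and P3 replicate 1 (7.14) lie between the other libraries for cardiomyocyte markers, P1 replicate 1 stands apart for fibroblast markers (6.61), and endothelial markers are higher in every P3 library than in every P1 library.

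Replicate 1 of each day stood apart from its group. On the first principal component of all tested rows, with 67.2% of the variance, P1 replicates 2 to 4 lay at -48.4, -40.1 and -31.6 and P3 replicates 2 to 4 at 31.6, 49.1 and 49.5. P1 replicate 1 lay at 2.32 and P3 replicate 1 at -12.4, and these 2 libraries had a rank correlation across genes of 0.966, near the top of the range within P3 (0.891 to 0.976). With replicates 2 to 4, P3 replicate 1 correlated at 0.957, 0.953 and 0.958 in P1 and at 0.951, 0.918 and 0.891 in P3, so it stood closer to the other day. P1 replicate 1 correlated at 0.914, 0.919 and 0.933 with those of P1 and at 0.952, 0.932 and 0.898 with those of P3. Whether either library carries the wrong day label or holds cells of mixed age was not tested, no source used here settles it, and every P3 minus P1 value with all 8 libraries rests on those 2 labels. Values below are given with all 8 libraries, and the counts of most gene lists and the changes of some genes also without both replicates 1, an alternative chosen after seeing the data. Leaving out libraries that lie in between widens the gap between the groups by construction. The denominator of the RPKM values was estimated, in units of 1000000 reads, at 10.5 to 11.3 in P1 and 9.47 to 13.6 in P3.

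With limma, 107 genes were called higher in P3 (1.16% of those tested) and 86 lower (0.936%), a call being an adjusted p under 0.05 and a log2 change of at least 1. Among the 193 calls, 157 had an adjusted p between 0.04 and 0.05 and the lowest was 0.0192, so most calls stood close to the threshold. Every P3 library was above every P1 library in 994 genes (10.8%) and below in 220 (2.39%), and 167 of the 193 calls had groups that did not overlap. The largest rises and falls named below were taken only from calls without overlap, so their lack of overlap is no separate support. Falls were deeper than rises, with a median log2 change of -1.99 among genes called lower and 1.32 among genes called higher. Over all tested genes the median change was 0.09. Quantile normalization left 8 calls higher and 7 lower. The median change was 0.22 when libraries were scaled to an equal RPKM sum, and genes called higher made up 55.4% of all calls in the main scaling, 30.7% with median-of-ratios scaling and 43.4% with an equal sum of RPKM leaving out the 100 highest genes. At an unadjusted limma p under 0.05, 1737 genes (18.9%) were higher and 1294 (14.1%) lower, the shares against which such counts of a list are read below. By library, no call was left without P1 replicate 2, P1 replicate 3, P3 replicate 2 or P3 replicate 3, with 1957, 2293, 2239 and 1979 genes at an unadjusted limma p under 0.05, against 3031 with all 8 libraries. In turn, 7 and 6 calls were left without P1 replicate 4 and without P3 replicate 4, 1120 calls were made without P1 replicate 1 and 1242 without P3 replicate 1. Without both replicates 1, 637 genes (6.93%) were called higher and 1072 (11.7%) lower, and all 193 calls were among them.

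**Figure D2:**
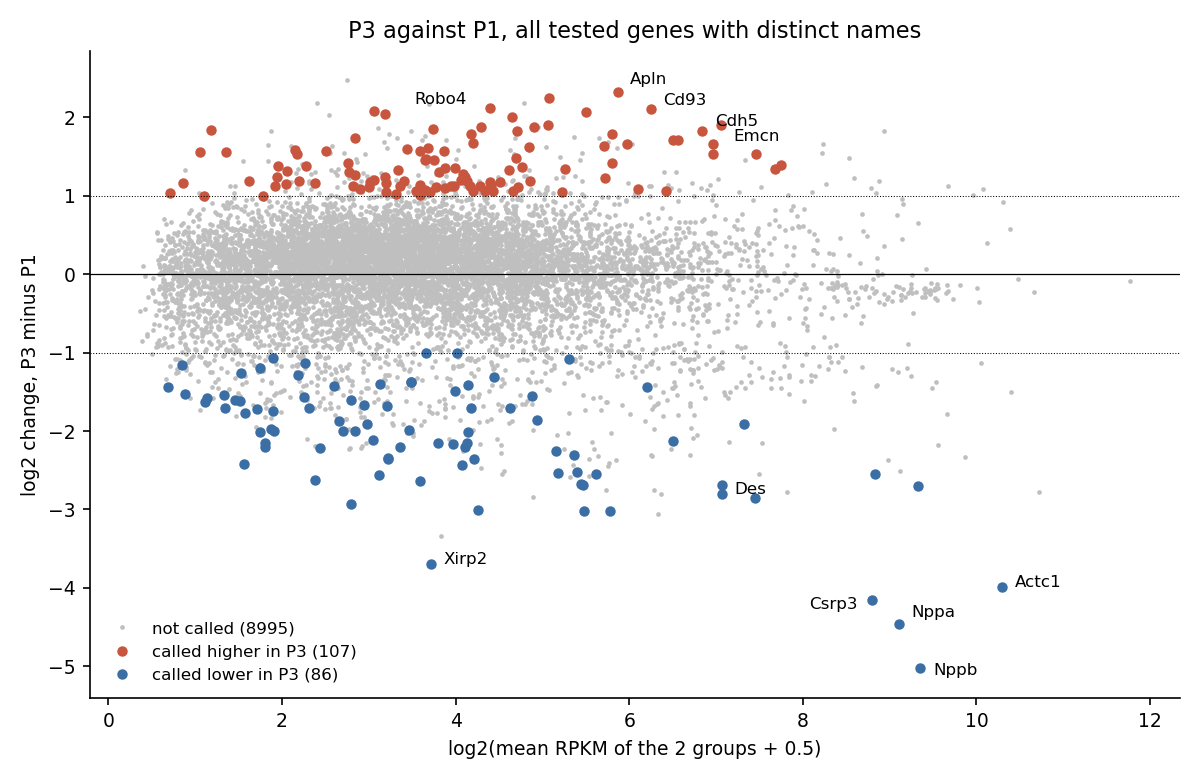
Log2 change from P1 to P3 (vertical axis) against the log2 of the mean RPKM of both groups plus 0.5 (horizontal axis) for tested genes, with called genes in colour and dotted lines at a change of 1 in either direction. The deepest falls, Nppb (-5.03), Nppa (-4.46), Csrp3 (-4.16) and Actc1 (-3.99), belong to abundant genes, while the highest rise, Apln, reaches 2.32.

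The 2 natriuretic peptide genes showed the deepest falls of all calls. Nppb encodes B-type natriuretic peptide, a hormone of stretched heart muscle, and Nppa the atrial form, and they are neighbours on chromosome 4 (mm10, plus strand, 147985788 to 147987205 and 148000722 to 148002079). In replicates 1 to 4, Nppb stood at 237, 1240, 939 and 2606 RPKM in P1 and at 149.8, 35.7, 21.8 and 4.75 RPKM in P3. Nppa stood at 1161, 988, 599 and 1320 RPKM in P1 and at 240.3, 63.8, 34.7 and 6.69 RPKM in P3. For both genes every P3 library was below every P1 library, which the rule for the largest falls required. P3 replicate 1 was the highest and P3 replicate 4 the lowest of their day. The log2 change was -5.03 (SE 0.97, adjusted p = 0.0464) for Nppb and -4.46 (SE 0.85, adjusted p = 0.0464) for Nppa. Their changes were -6.48 and -5.18 without both replicates 1.

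Of the 14 tested fetal contractile and stress genes, 7 fell, 0 rose and 7 were not called, with a list median of -2.50 (9 lower and 2 higher without both replicates 1). Beside the natriuretic peptides, the genes that fell were Xirp2, an actin-binding protein of the intercalated disc, the skeletal alpha-actin Acta1, the intermediate filament gene Des, the slow myosin Myh7 and the skeletal calsequestrin Casq1. The list's mean log2 level was 6.75 in P1, 5.01 in P3 and 3.75 in adults. Its members differed, since the adult medians of Acta1 (81.9 RPKM) and Des (286) were above their P1 means (12 and 228). Xirp2 went from 3.44, 9.62, 17.1 and 67.5 RPKM to 1.71, 0.627, 0.312 and 0.326 RPKM, with a change of -3.70 (adjusted p = 0.0464, and -4.66 without both replicates 1). Myh7, the myosin heavy chain of the fetal mouse ventricle, went from 15.9, 13.4, 18.3 and 32.5 RPKM to 6.87, 1.56, 2.08 and 1.97 RPKM (-2.63, adjusted p = 0.0349). Neither gene overlapped between days, and both had their highest P3 value in replicate 1. Xirp2 passed the filter through its P1 libraries, and both genes were among the largest falls, taken only from groups without overlap. Their lack of overlap is thus no separate support. The smooth muscle and non-muscle members of the same list had positive changes that did not pass the test, Tpm4 with 1.19 (adjusted p = 0.0698), Tagln with 1.01, Acta2 with 0.76 and Actn1 with 0.71.

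**Figure D3:**
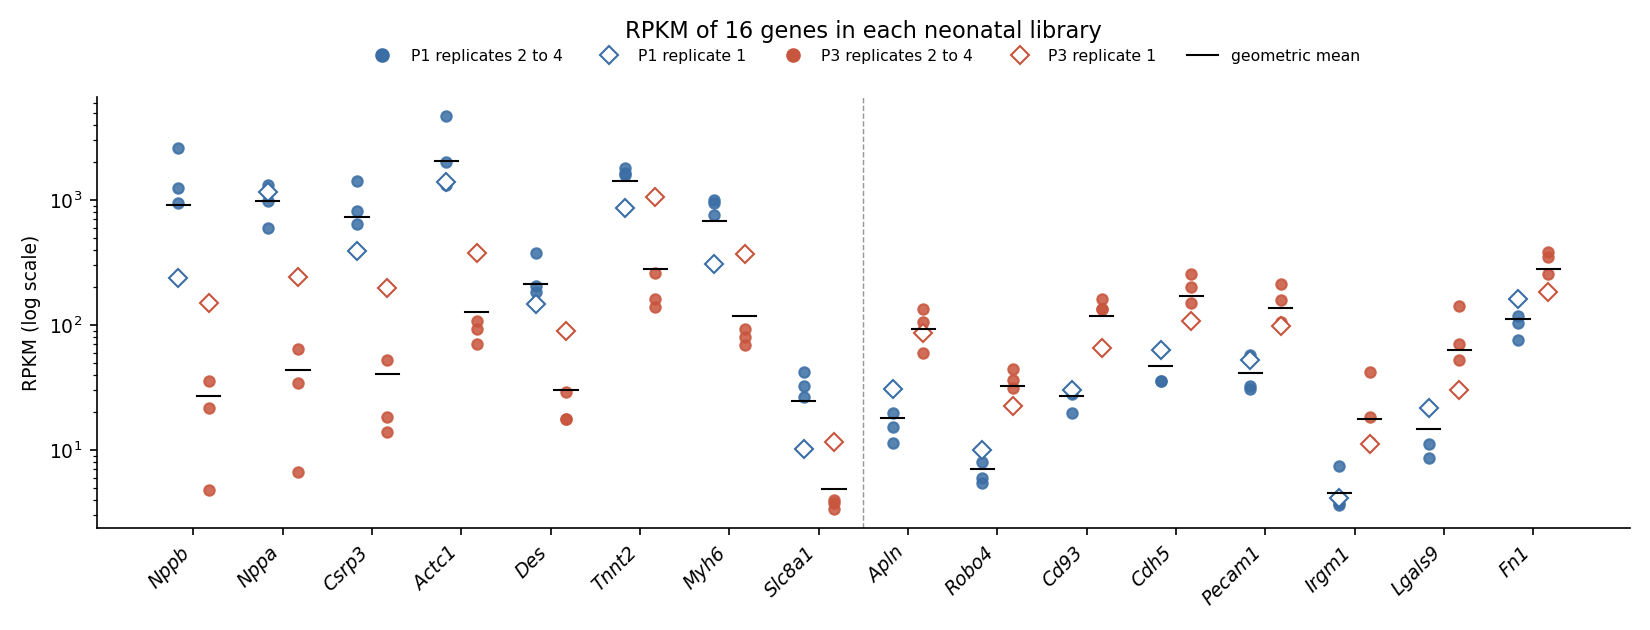
RPKM on a log axis of 16 genes in each neonatal library, P1 in blue and P3 in red, with open diamonds for replicate 1 of each day and lines for the geometric mean. The 8 genes left of the dashed line had a lower mean in P3, Tnnt2 without passing the test, and the 8 genes on the right rose. For Tnnt2, Myh6 and Slc8a1 the P3 diamond lies above the P1 diamond, while for Nppa, Csrp3 and Actc1 it lies below every P1 library.

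Most sarcomere genes had negative changes, and a minority were called. Of 29 tested thin filament and Z-disc genes, 8 fell, 0 rose and 21 were not called, with 27 changes below 0 and a median of -2.44, against 0.09 for all tested genes. The list's mean log2 level overlapped between days, since P3 replicate 1 (5.96) lay above P1 replicate 1 (5.80). Csrp3, the muscle LIM protein of the Z disc, went from 391, 810, 647 and 1418 RPKM in P1 to 197, 52.4, 18.5 and 13.8 RPKM in P3 (-4.16, SE 0.74, adjusted p = 0.0436). Actc1, cardiac alpha-actin and the main actin of the heart, went from 1402, 2017, 1321 and 4685 RPKM to 379, 109, 93.3 and 70.3 RPKM, a change of -3.99 (SE 0.56, adjusted p = 0.03). The changes were -5.22 for Csrp3 and -4.69 for Actc1 without both replicates 1. Both genes had every P3 library under every P1 library, which the rule for the largest falls required. The desmin gene Des, which ties Z discs to each other, went from 149, 183, 205 and 375 RPKM to 89.8, 29.3, 17.9 and 17.6 RPKM (-2.80, adjusted p = 0.0436). Tnnc1, the calcium sensor of the thin filament, fell by 2.70 on the log2 scale and the Z-disc crosslinker Actn2 by 2.86, while Nrap, which assembles new myofibrils, fell by 3.02. The cardiac troponins Tnnt2 (-2.33, adjusted p = 0.0546) and Tnni3 (-2.51, adjusted p = 0.0637) were not called with all libraries. Tnnt2 was at 857, 1793, 1633 and 1590 RPKM in P1 and 1048, 263, 163 and 139 RPKM in P3, where replicate 1 lay within the P1 range. Without both replicates 1, 25 of the 29 were called lower and 1, the beta-tropomyosin Tpm2 (1.24), higher.

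Of 15 thick filament genes, 3 fell, 0 rose and 12 were not called, and all 15 changes were below 0 (median -2.54, 14 lower without both replicates 1). Its mean log2 level was 5.33 in P1 replicate 1 and 5.58 in P3 replicate 1, with 6.53 to 6.58 in the other P1 libraries. The genes that fell were Myom1, which crosslinks myosin at the M band (-2.69, adjusted p = 0.0464), the adult ventricular myosin Myh6 (-2.54, adjusted p = 0.0464, and -3.48 without both replicates 1) and Myh7. Myh6 was at 306, 950.4, 756 and 1006 RPKM in P1 and at 368, 93.2, 68.8 and 79.9 RPKM in P3, so that replicate 1 of P3 lay above replicate 1 of P1. The ventricular light chain Myl2, the most abundant member, was at 1630, 3246, 2724 and 3181 RPKM in P1 and 2017, 362, 177 and 158 RPKM in P3 (-2.78, adjusted p = 0.0569). Titin, Ttn, the giant spring of the sarcomere, had a change of -1.78 (adjusted p = 0.084). Near-identical paralogs such as Myh6 and Myh7 or Acta1 and Actc1 may have traded reads, and so may genes with an antisense partner, since no source used here gives the strand of counting.

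The promoters of some of these genes are shown because the sarcomeric actins are classical targets of serum response factor, whose motif is the CArG box. Each line runs from 150 to 38 bases before the annotated start in RefSeq (GRCm38.p6), 5′ to 3′ on the gene's strand, with CArG box matches in capitals.
Actc1 (chr2:114052913-114053025, minus strand): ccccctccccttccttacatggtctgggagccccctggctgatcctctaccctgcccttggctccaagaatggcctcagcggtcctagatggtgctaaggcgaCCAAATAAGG
Acta1 (chr8:123894813-123894925, minus strand): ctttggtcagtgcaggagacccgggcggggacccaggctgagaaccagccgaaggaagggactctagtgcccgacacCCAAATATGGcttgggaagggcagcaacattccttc
Myom1 (chr17:71019407-71019519, plus strand): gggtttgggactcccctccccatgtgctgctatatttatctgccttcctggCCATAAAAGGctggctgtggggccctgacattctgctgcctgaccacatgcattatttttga
The match begins 47 bases before the annotated start in Actc1, 73 in Acta1 and 99 in Myom1. A promoter of 300 bases (250 before to 50 after the start) was matched by symbol for 7253 of 9187 tested names. A CArG box on either strand was in 6 of 72 promoters of genes called lower (8.33%), in 0 of 81 of genes called higher, in 1.42% of the 7253 and in 1.57% of all 27025 in the table. The motif of the muscle factor MEF2 was in 6 of the 72 (8.33%), in 1 of the 81 (1.23%) and in 1.78% of the 7253. Of the other motifs searched on both strands, the TEAD motif GGAATG was in 18 of the 72 (25%), in 15 of the 81 (18.5%) and in 11.4% of the 7253. The ETS motif CCGGAAG was in 2 of the 72 (2.78%) and 5 of the 81 (6.17%), against 21.3% of the 7253 and 9.12% of all in the table, and in 0 of 8 promoters of endothelial markers. The AP-1 motif TGANTCA was in 5.56%, 4.94% and 4.18%, in the same order. The ERR motif TCAAGGTCA, the E2F motif and the NRF1 motif were in 0 promoters of called genes, against 0.221%, 3.23% and 3.56% of the 7253. A match is a description of these letters and no evidence of binding.

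Of 32 calcium cycling and excitation genes, 5 fell, 0 rose and 27 were not called, with a median of -1.54. The genes that fell were Slc8a1, the sodium-calcium exchanger (-2.21, adjusted p = 0.0464), the Popeye protein gene Bves (-2.67), Casq1 (-2.41), Srl, which encodes sarcalumenin (-2.36), and Fxyd1, the sodium pump regulator phospholemman (-2.31). Casq1, the skeletal calcium store of the reticulum, went from 4.52, 3.85, 3.09 and 6.4 RPKM to 0.746, 0.62, 0.177 and 0.208 RPKM (adjusted p = 0.0192). Every P3 value of Casq1 was under 1 RPKM, so this gene passed the filter only through the P1 libraries, and its lack of overlap is no separate support. Slc8a1 went from 10.2, 32.4, 26.5 and 41.8 RPKM to 11.6, 3.38, 3.99 and 3.74 RPKM, with both replicates 1 close to each other. The calcium pump Atp2a2 (-1.28, adjusted p = 0.0753), its inhibitor Pln (-1.58, adjusted p = 0.113) and the release channel Ryr2 (-1.92, adjusted p = 0.0553) did not pass with all libraries. Without both replicates 1, 22 of the 32 were called lower and the inositol trisphosphate receptor Itpr2 (1.30) higher.

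The size of the difference varied among muscle genes, described here without a test. Set against Tnnt2 within each library, the mean log2 ratio of Nppb differed by -2.75 from P1 to P3, that of Nppa by -2.16, that of Csrp3 by -1.86 and that of Actc1 by -1.67, and in these 4 genes the ratios of the 2 days did not overlap. The ratio of Nppa ran from -1.45 to 0.44 in P1 and from -4.38 to -2.04 in P3. Differences of the mean ratio were small for Myl3 (0.15), Tnni3 (-0.19), Myh6 (-0.22), Ckm (0.22) and Ryr2 (0.27), but libraries of 1 day differed by more than that, Ryr2 running from -6.73 to -5.61 and Ckm from -3.84 to -2.56 in P3. Mb (0.96) and Cdh2 (1.61) had a higher ratio in every P3 library than in any P1 library, and Pln (0.74) overlapped, its highest P1 ratio being -2.44 and its lowest P3 ratio -2.69. The choice of Tnnt2 as the reference was made with the values known.

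Calls were also made among chaperone, ubiquitin ligase and splicing genes. Of 36 heat shock and folding genes, 3 fell and 0 rose, all 3 of the small heat shock family, Hspb7 (-2.69, adjusted p = 0.0464), Hspb6 (-2.25) and Hspb1 (-1.91), which protect sarcomere proteins. The other small heat shock genes of the list were not called, Cryab, the abundant alpha-B crystallin, with -1.61 (adjusted p = 0.0826), Hspb2 with -2.36 (adjusted p = 0.0593) and Hspb8 with -1.56 (adjusted p = 0.104). The list median was 0.26, and 7 were lower and 2 higher without both replicates 1. Of 16 muscle ubiquitin ligase and related genes, 2 fell and 0 rose (median -1.67, 12 lower without both replicates 1), Klhl41, which stabilizes nebulin-type proteins (-2.56), and Asb2 (-2.35), from 7.78, 20.8, 9.38 and 22.5 RPKM to 4.79, 1.65, 1.67 and 1.89 RPKM. Among 29 splicing regulators Rbm24, a muscle splicing factor, fell (-2.15, adjusted p = 0.0483), and the titin splicing factor Rbm20 was not called (-1.98). Of the 29, 5 were lower and 2 higher without both replicates 1. Nmrk2, a muscle kinase of the NAD pathway, went from 60.5, 64.7, 40.5 and 133 RPKM to 38.9, 6.54, 4.06 and 3.45 RPKM (-3.02, adjusted p = 0.0467). Bex1 went from 30.2, 61.1, 59.7 and 85.3 RPKM to 30.2, 9.83, 6.96 and 3.19 RPKM (-2.53, adjusted p = 0.0474), with replicate 1 of both days at the same level.

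**Figure D4:**
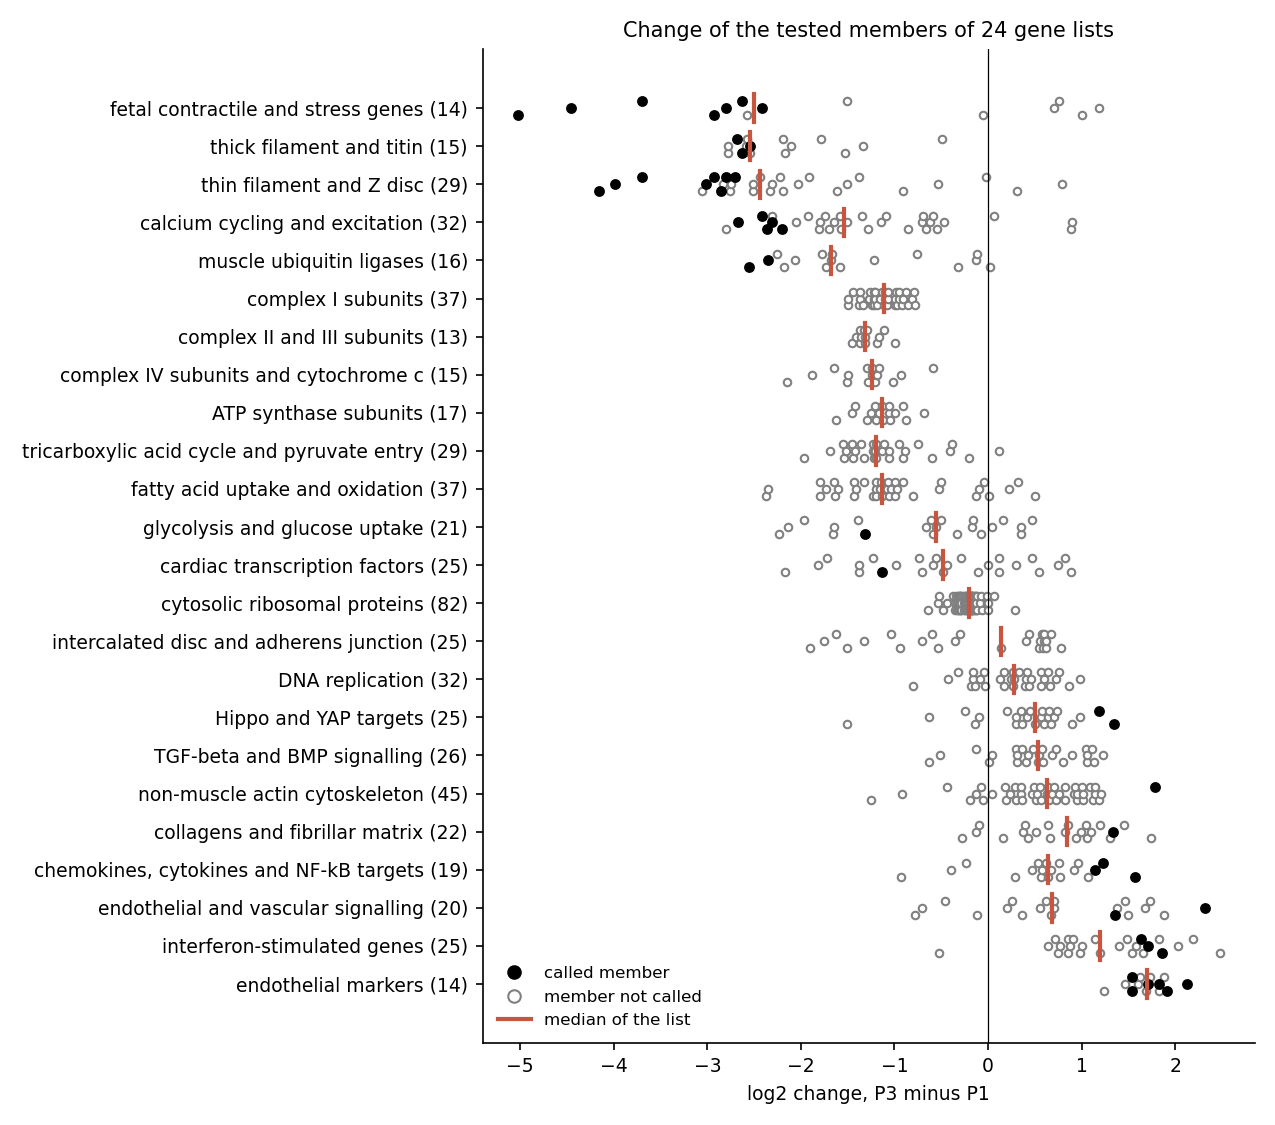
Log2 change from P1 to P3 (horizontal axis) of each tested member of 24 gene lists, with the number of members in parentheses, filled points for called genes and red bars for list medians. Medians of the muscle and mitochondrial lists lie left of 0, with no called member among the 4 respiratory chain lists, and those of the endothelial, interferon and matrix lists lie right of 0.

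Nuclear genes of the respiratory chain had negative changes that did not pass limma's adjusted threshold. Of 37 complex I genes 0 were called and 37 were lower at an unadjusted p under 0.05, with all 37 changes below 0, between -1.50 and -0.78 (median -1.11). Complexes II and III (13 genes, median -1.31), complex IV with cytochrome c (15, -1.24) and ATP synthase (17, -1.14) likewise had 0 calls and every change below 0, and at an unadjusted p under 0.05 the lower genes were 13, 14 and 17. Ndufb10, a complex I subunit, was at 179, 355, 278 and 295 RPKM in P1 and 259, 92.3, 61.5 and 63.4 RPKM in P3 (-1.45, adjusted p = 0.0701), and P3 replicate 1 lay inside the P1 range. Without both replicates 1, 37 of 37, 13 of 13, 14 of 15 and 16 of 17 were called lower. Of 29 genes of the tricarboxylic acid cycle 0 were called (median -1.20, 23 lower at an unadjusted p under 0.05 and 25 lower without both replicates 1). Of 37 fatty acid genes 0 were called (median -1.13, 25 lower and 1 higher at an unadjusted p under 0.05 and 28 lower without both replicates 1), including the muscle transporter of fatty acids into mitochondria, Cpt1b (-2.35, adjusted p = 0.0717), and the cytosolic carrier Fabp3 (-2.37). None of 22 mitochondrially encoded genes was in the table.

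Of 17 metabolic nuclear receptors and coactivators 1 rose and 1 fell (median 0.10, 1 higher and 6 lower without both replicates 1). Esrrg, an orphan nuclear receptor of oxidative metabolism, went from 2.73, 9.23, 11.1 and 10.3 RPKM to 3.43, 1.12, 0.7 and 0.629 RPKM (-2.21, adjusted p = 0.0467), with both replicates 1 between the other libraries of the 2 days. Pparg, a lipid-sensing receptor of adipocytes and endothelium, went from 2.25, 2.65, 1.15 and 2.56 RPKM to 5.22, 5.64, 4.47 and 10.9 RPKM (1.38, adjusted p = 0.0464). The other 15 were not called, among them the fatty acid receptor Ppara (-0.91), the relative of Esrrg, Esrra (-1.34), and the mitochondrial coactivator Ppargc1a (-1.33).

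In glycolysis 1 of 21 genes fell and 0 rose (median -0.56, 7 lower and 1 higher without both replicates 1). The gene was Hk2, the hexokinase of insulin-sensitive muscle, at 21.7, 30.4, 31.7 and 38.1 RPKM in P1 and 15.1, 15.3, 9.54 and 8.58 RPKM in P3 (-1.31, adjusted p = 0.0436). Within this list and others, muscle or heart forms of a protein had a lower change than their widely expressed relatives, in 8 pairs chosen after their values were seen and not tested. The muscle form of phosphoglycerate mutase, Pgam2, had a change of -2.23 and Pgam1 one of -0.07 (0.15 with quantile normalization). The muscle enolase Eno3 had -1.97 and the common Eno1 0.47. The insulin-responsive glucose transporter Slc2a4 had -1.65 and the common Slc2a1 0.15. The muscle elongation factor Eef1a2 had -2.32 and Eef1a1, which every cell uses, -0.08 (0.16 with quantile normalization). The within-library log2 ratio of Eef1a2 to Eef1a1 was -5.06 ± 0.85 (SD, n = 4) in P1 and -7.30 ± 1.25 (SD, n = 4) in P3, and the groups overlapped. The difference of the means was -2.24, and -3.25 without both replicates 1. In 1 of the 8 pairs, Actc1 with Actb, the ratios did not overlap, at 2.06 ± 1.13 (SD, n = 4) in P1 and -3.05 ± 1.14 (SD, n = 4) in P3. Reads of such paralogs may be shared between them by the counting.

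**Figure D5:**
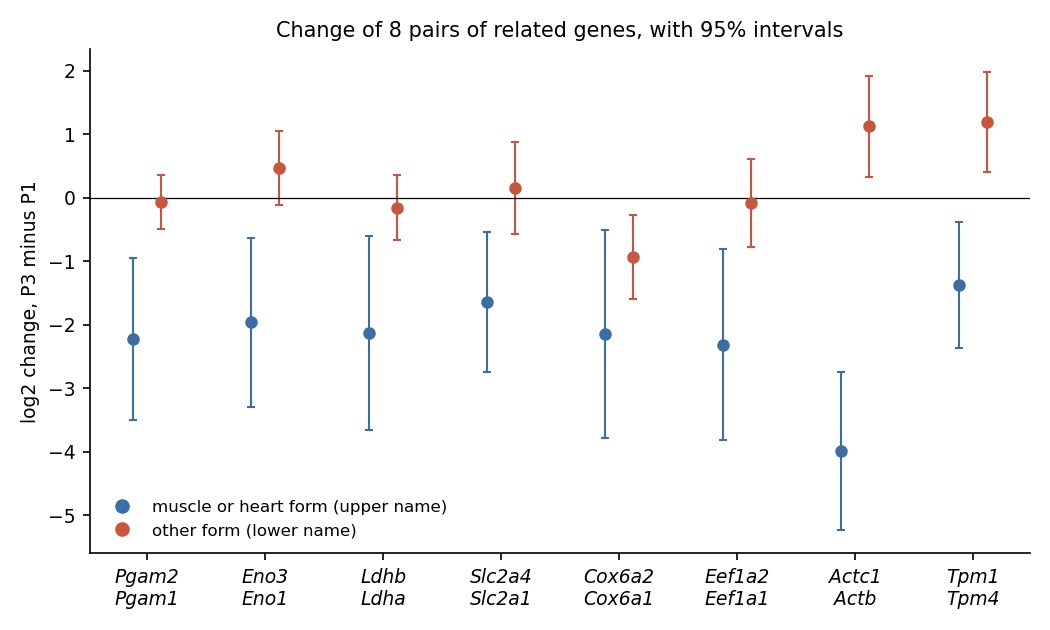
Log2 change from P1 to P3 of 8 pairs of related genes, blue for the muscle or heart form and red for the other form, with 95% intervals from limma, not adjusted for the number of genes. In each pair the muscle or heart form has the lower change and an interval below 0, and the intervals of the other forms include 0 except those of Cox6a1, Actb and Tpm4.

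Endothelial markers had positive changes throughout, and a part of them were called. Of 14 tested endothelial markers, 6 rose, 0 fell and 8 were not called, with all 14 changes between 1.24 and 2.12 (median 1.70), and in 11 of the 14 every P3 library was above every P1 library. Cdh5, the cadherin of endothelial junctions (chromosome 8, plus strand, 104101625 to 104144511), went from 62.7, 35.5, 35.4 and 64.1 RPKM to 108, 151, 202 and 254 RPKM (1.83, SE 0.31, adjusted p = 0.0389). Robo4, a guidance receptor of vessels, went from 9.93, 5.41, 5.96 and 7.96 RPKM to 22.4, 31.1, 36.4 and 44.7 RPKM (2.12, SE 0.25, adjusted p = 0.0192). Pecam1, the adhesion molecule CD31, went from 52.1, 32.3, 30.5 and 57.9 RPKM to 98.8, 106, 159.9 and 212 RPKM (1.71, adjusted p = 0.0433). In each of these genes P3 replicate 1 was the lowest of its day and still above all of P1. The sialomucin Emcn (1.91), the TGF-beta coreceptor Eng (1.54) and the caveolin Cav1 (1.53) also rose. The VEGF receptor Kdr (1.88, adjusted p = 0.0601) and the capillary fatty acid carrier Fabp4 (1.83, adjusted p = 0.0508) did not pass with all libraries. All 14 were called higher without both replicates 1.

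The largest rise of all calls was that of Apln, the peptide apelin, which sprouting endothelium secretes (chromosome X, minus strand, 48025146 to 48034853). It went from 31, 15.3, 11.3 and 19.9 RPKM to 85.8, 105, 135 and 60.1 RPKM (2.32, SE 0.33, adjusted p = 0.03). Prnd, a prion-like protein gene, went from 11.9, 10.2, 5.71 and 18 RPKM to 28.4, 67.7, 59.5 and 64.6 RPKM (2.25, adjusted p = 0.037). Cd93, a C-type lectin of endothelium, went from 30.2, 28.1, 19.8 and 30.9 RPKM to 65.3, 134, 160.5 and 134 RPKM (2.10, adjusted p = 0.03). All 3 had groups that did not overlap, which the rule for the largest rises required. Gpihbp1, which carries lipoprotein lipase to the capillary surface, rose by 1.91, the adhesion receptor Adgrf5 by 1.88 and the proteoglycan Srgn by 2.04. A second adhesion receptor of endothelium, Adgrl4, rose from 12.9, 5.13, 6.62 and 13.7 RPKM to 21.2, 32.9, 41.8 and 63 RPKM. Rflnb, a filamin-binding protein, went from 1.95, 2.73, 2.61 and 3.24 RPKM to 9.34, 11.5, 11.7 and 19.8 RPKM (2.08, adjusted p = 0.0192). Of 20 vascular signalling genes, 2 rose, Apln and the Notch ligand Jag1 (1.36, adjusted p = 0.0464), 0 fell and 18 were not called (median 0.69, 8 higher and 1 lower without both replicates 1), among them the VEGF genes Vegfa (-0.46) and Vegfb (-0.78).

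The mean log2 level of the 16 cardiomyocyte markers was 6.75, 8.04, 7.90 and 8.02 in P1 and 7.14, 5.32, 4.59 and 4.59 in P3. That of the endothelial markers was 5.32, 4.36, 4.33 and 5.30 in P1 and 5.94, 6.22, 6.69 and 7.23 in P3. In replicates 2 to 4 a higher endothelial level in P3 thus stood beside a lower cardiomyocyte level, while P3 replicate 1 was above P1 replicate 1 in both. The part of these marker levels in the rises was not tested.

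Matrix and cytoskeleton genes had mostly positive changes and few calls. Of 22 collagen and matrix genes, 1 rose, 0 fell and 21 were not called (median 0.84, 16 higher without both replicates 1). The gene was Fn1, fibronectin, at 163, 104, 76.2 and 118 RPKM in P1 and 182, 383, 353 and 256 RPKM in P3 (1.34, adjusted p = 0.0483). The basement membrane collagen Col4a1 was at 446, 245, 162 and 303 RPKM in P1 and 446, 709, 623 and 584 RPKM in P3, with both replicates 1 level, and did not pass (1.10, adjusted p = 0.0667). Interstitial genes were highest in P1 replicate 1: Col3a1 stood at 401, 22, 23.3 and 19 RPKM in P1 and 45.8, 68.3, 99.2 and 81.8 RPKM in P3, and Postn, the fibroblast protein periostin, at 634, 97.5, 95.3 and 104 RPKM and 229, 371, 301 and 239 RPKM. Col3a1, a fibrillar collagen, had a change of 0.66 (adjusted p = 0.598) with that library and of 1.92 without both replicates 1. Of 45 non-muscle actin cytoskeleton genes, 1 rose by limma, 0 fell and 44 were not called (median 0.63, 17 higher and 1 lower without both replicates 1). The common actins Actb (1.12) and Actg1 (1.09) were not called.

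Most interferon-stimulated genes had positive changes, with 1 library far above the rest. Of 25 tested, 3 rose, 0 fell and 22 were not called, 24 changes being above 0 (median 1.20, 19 higher without both replicates 1). Irgm1, an interferon-induced GTPase, went from 4.14, 3.66, 3.8 and 7.5 RPKM to 11.2, 18.4, 11.5 and 42.4 RPKM (1.86, SE 0.40, adjusted p = 0.0464). Bst2, the membrane tether tetherin, went from 57.4, 28.1, 26.9 and 48.9 RPKM to 71.5, 104, 138 and 245 RPKM (1.71, adjusted p = 0.0483). H2-D1, a class I antigen-presenting molecule, went from 32.3, 17.2, 23 and 26.6 RPKM to 53, 70.9, 84.6 and 106 RPKM (1.64, adjusted p = 0.0349). All 3 were highest in P3 replicate 4, and none overlapped between days. The same library stood out for Irf7, a regulator of the interferon response, which was at 1.02, 0.663, 1.49 and 0.812 RPKM in P1 and 0.871, 5.34, 5.41 and 26.9 RPKM in P3 (2.03, adjusted p = 0.0896). The list's mean log2 level was 3.33, 4.11, 4.18 and 5.47 in P3 against 2.54 to 3.23 in P1. Its median change was 0.79 without P3 replicate 4 and 1.57 without P3 replicate 1. Members of these families share sequence, so the split of reads between them is uncertain.

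The promoter of Irgm1 is shown for its ISRE, the element bound by interferon-activated factors, searched as GAAANNGAAA on both strands, with the 2 overlapping matches in capitals (RefSeq, GRCm38.p6, the 150 bases before the annotated start).
Irgm1 (chr11:48871421-48871570, minus strand): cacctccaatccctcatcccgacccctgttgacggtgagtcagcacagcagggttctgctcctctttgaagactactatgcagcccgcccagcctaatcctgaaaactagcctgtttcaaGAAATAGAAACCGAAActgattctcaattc
The first match begins 30 bases before the start. An ISRE was in 9 of 20 promoters of the interferon list (45%), in 4 of 81 of all genes called higher (4.94%), in 1 of 72 of genes called lower (1.39%), in 2.55% of the 7253 tested promoters and in 3.49% of all in the table. The 4 included Lgals9, a galectin, which rose from 21.5, 8.67, 11.1 and 22.2 RPKM to 30.5, 52.4, 70.5 and 143 RPKM (2.07, adjusted p = 0.0467) and was also highest in P3 replicate 4.

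Of 19 chemokine, cytokine and NF-kB genes, 3 rose, 0 fell and 16 were not called (median 0.64, 7 higher without both replicates 1): the inhibitor Nfkbia, from 46.2, 23.2, 24 and 31.3 RPKM to 44.8, 80.6, 87.4 and 80.3 RPKM (1.23, adjusted p = 0.0483, P3 replicate 1 inside the P1 range), the NF-kB subunit Relb (1.14, adjusted p = 0.0464) and Tnfaip2, a target of tumour necrosis factor (1.57, adjusted p = 0.0464). The endothelial marker level was also higher in P3, at 4.33 to 5.32 in P1 and 5.94 to 7.23 in P3. Whether these 3 genes follow it from library to library, and its part in their rises, was not tested. Immediate-early genes, which respond to cell handling, had 0 limma calls among 30 (median 0.08, with 5 higher and 2 lower at an unadjusted p under 0.05, against 18.9% and 14.1% of all tested genes). Fos was at 23.4, 9.11, 11.9 and 13.7 RPKM in P1 and at 11.3, 11.2, 22.6 and 14.3 RPKM in P3 (0.06, adjusted p = 0.909, and -0.01 with quantile normalization).

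Cell cycle genes showed no called change in the proliferative lists. Of 32 DNA replication genes, 12 mitosis genes and 18 genes of the G1 phase, 0 were called with limma, with medians of 0.27, 0.44 and 0.37. At an unadjusted p under 0.05, 5, 7 and 4 of them were higher and 1, 0 and 1 lower, where 18.9% of all tested genes were higher and 14.1% lower. The replicative helicase subunit Mcm3 was at 28.8, 6.84, 11.5 and 10.6 RPKM in P1 and 17.7, 29.6, 26.3 and 28.6 RPKM in P3 (0.98, adjusted p = 0.105), with P1 replicate 1 inside the P3 range. In DNA replication, 6 genes were called higher and 1 lower without both replicates 1, in mitosis 2 higher and 0 lower, and in the G1 list 0. Only 12 of 42 listed mitosis genes were in the table, and the others were not analysed here. Outside these lists Sgol2a, which guards the cohesion of sister chromatids, rose at a low level, from 1, 0.35, 0.477 and 0.705 RPKM to 1.77, 2.22, 2.35 and 1.62 RPKM (1.16, adjusted p = 0.0464), with every P3 library above P1. This gene passed the filter through its P3 libraries, so its lack of overlap is no separate support. Among 26 cell cycle inhibitors and p53 targets 2 fell and 0 rose (7 lower and 3 higher without both replicates 1). Tob1, an antiproliferative protein, went from 25.9, 47.5, 39 and 32.9 RPKM to 23.4, 10.6, 8.51 and 5.59 RPKM (-1.71, adjusted p = 0.0464), and Meis1, a homeobox factor that restrains cardiomyocyte division, from 4.26, 6.92, 5.21 and 7.95 RPKM to 3.65, 2.33, 1.91 and 2.13 RPKM (-1.13, adjusted p = 0.0464). In both genes the P3 libraries were all below the P1 libraries. Cdkn1a, the inhibitor p21, was not called (-0.91, adjusted p = 0.191).

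Growth pathways gave 0 to 2 calls a list. Of 25 Hippo and YAP genes 2 rose, the kinase adaptor Mob1a, from 20.6, 15.6, 15.9 and 16.6 RPKM to 29.3, 47.5, 44.2 and 39 RPKM (1.19, adjusted p = 0.0349), and the growth factor binding protein Crim1 (1.34, adjusted p = 0.0467), and 0 fell (median 0.50, 4 higher and 1 lower without both replicates 1). The YAP targets Ctgf (0.58) and Cyr61 (0.90) were not called, and Ankrd1, a YAP target of heart muscle, had the opposite sign (-1.51, adjusted p = 0.131). Of 27 Wnt genes 2 rose, the receptor Fzd4, from 8.96, 4.3, 4.55 and 6.56 RPKM to 9.72, 16.1, 23.9 and 22.7 RPKM (1.47, adjusted p = 0.0464), and Jag1, and 0 fell (median 0.18, 4 higher and 1 lower without both replicates 1). Of 21 ERBB, FGF and insulin genes Foxo1, the transcription factor that insulin signalling holds in check, rose (1.12, adjusted p = 0.0464), and 0 fell (2 higher and 3 lower without both replicates 1). Of 26 TGF-beta and BMP genes 0 were called, with 13 higher and 0 lower at an unadjusted limma p under 0.05 (median 0.54, 7 higher without both replicates 1).

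No gene of the junction list was called, a list that does not hold Cdh5 or Xirp2. Of 25 intercalated disc and adherens junction genes 0 were called, with 13 changes above 0 and 12 below, and 9 higher and 9 lower at an unadjusted limma p under 0.05. Desmosome genes were among the lowest, with the desmoplakin gene Dsp at -1.90 (adjusted p = 0.0546), Dsc2 at -1.75 and Pkp2 at -1.63. Cdh2, N-cadherin of the intercalated disc, was at 51.2, 106, 88.8 and 90.1 RPKM in P1 and 76.3, 50, 46.2 and 33.8 RPKM in P3, a change of -0.71 (adjusted p = 0.122, two-sided exact permutation p = 0.057). Ctnnb1, beta-catenin, was at 230, 176, 192 and 209 RPKM in P1 and 268, 299, 312 and 359 RPKM in P3, with every P3 library above P1, a change of 0.61 (adjusted p = 0.0717, two-sided exact permutation p = 0.029, the smallest that the 70 assignments allow). Beta-catenin also serves the junctions of endothelium, whose mean log2 marker level was 4.33 to 5.32 in P1 and 5.94 to 7.23 in P3, and its part in this difference was not tested. Without both replicates 1, 9 of the 25 were called lower, Cdh2 among them (-1.14), and 0 higher.

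Of 25 cardiac transcription factors 1 fell, Meis1, and 0 rose (median -0.48, 9 lower and 1 higher without both replicates 1). Hopx (-2.17, adjusted p = 0.0736) and Nkx2-5 (-1.82, adjusted p = 0.0701), core regulators of heart muscle, did not pass, and Gata4, shared with other heart cells, had a change of -0.48. Among 17 circadian clock genes the output factor Dbp fell, from 3.63, 5.9, 4.57 and 4.03 RPKM to 2.63, 1.28, 1.46 and 2.32 RPKM (-1.07, adjusted p = 0.0464), and the clock activator Arntl was not called (1.19). Of the 17, 3 were lower and 1 higher without both replicates 1. No source used here gives the hour of collection. The receptor gene Vldlr fell (-1.38, adjusted p = 0.0464), the 1 call among 14 amino acid and ATF4 genes.

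Housekeeping groups gave 0 limma calls, with list medians between -0.21 and 0.26. The 82 cytosolic ribosomal protein genes, none of which reached an unadjusted p under 0.05, lay between -0.65 and 0.29 (median -0.21, and 0.04 with quantile normalization). The proteasome (35 genes, median -0.15) had 0 genes at an unadjusted p under 0.05, translation factors (48, 0.08) had 3 higher and 1 lower, and lysosome genes (40, 0.26) had 9 higher and 3 lower, against 18.9% and 14.1% of all tested genes. Cholesterol synthesis (18 genes) had 1 higher and 1 lower, and its median was within 0.13 of 0 under every scaling.

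Set beside the adult libraries, the genes that fell did not all move toward adult levels. Of the 86 called lower, the adult median was above the P3 mean in 67 and above the P1 mean in 32. Actc1, with means of 2356 RPKM in P1 and 163 in P3, had an adult median of 3704 RPKM, and Csrp3, with 816 and 70.5, one of 606. Nppa, at 1017 and 86.3, had an adult median of 14.4, and Nmrk2, at 74.7 and 13.2, one of 0.693, both below the P3 mean. In P3 replicate 4, Nppa (6.69 RPKM) was already under its adult median. Nppb, at 1255 and 53, had an adult median of 88.6, above its P3 mean and below its P1 mean. Of the 107 called higher, the adult median was below the P3 mean in all 107 and below the P1 mean in 103. The same counts were not made over all tested genes, so these shares cannot be read as particular to called genes. Calls were also chosen for a low or a high P3 mean. The mean log2 level of cytosolic ribosomal protein genes, with 0 calls, was 8.75 in P1, 8.53 in P3 and 6.48 in adults. That of cardiomyocyte markers was 7.68, 5.41 and 8.49. The adult libraries fall into sets that differ in depth, and they were no part of the test.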

How the data were processed

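RNA of 8 neonatal ventricular cardiomyocyte libraries (4 from P1, 4 from P3) was sequenced. Per the submitters' processing notes the reads were handled with HISAT2 and Partek 6.6 on the mm10 build, and the authors deposited 1 table of RPKM values per gene. The annotation, the counting rules and the strand setting were not given in the sources used here. The lowest deposited RPKM was 0.1001, so genes under that level in some library are not analysed here, and 15 row names had turned into dates. Read denominators were estimated from the spacing of the RPKM values, 87.1% of rows being whole multiples of 1 read within a relative tolerance of 1.5e-05. In 125 of 7989 such tested rows a library had under 10 reads.

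Values were taken as log2(RPKM + 0.5), which understates changes of low genes. Rows with at least 1 RPKM in at least 4 of the 8 libraries were fitted with limma 3.58.1 in R 4.3.3 (empirical Bayes with trend, two-sided, Benjamini-Hochberg over 9189 rows). The procedure was run on simulated data with independent noise for each gene. Such data lack the differences that genes share between these libraries, so the simulation cannot show how the calls behave under them. Cdh2 and Ctnnb1 also had an exact permutation test. Alternatives were other pseudocounts, filters, scalings, variance models, a replicate block, all 15 libraries in 1 fit, and each library left out. The members and lists were chosen with earlier results of these data known. Named genes were Cdh2 and Ctnnb1, the 14 largest rises and 14 largest falls without overlap between groups and with at least 10 RPKM in the higher group, up to 4 called and 3 most abundant members of each list, and called members against their list's majority (up to 2). The forms set side by side in pairs, and Tnni3, Ttn, Ryr2, Slc8a1, Itpr2, Nkx2-5, Hopx, Ppara, Ppargc1a, Cpt1b, Rbm20, Kdr, Cav1, Vegfa, Vegfb, Irf7, Fos, Arntl, Dsp, Dsc2, Pkp2, Hspb2, Hspb8, Sgol2a, Tagln, Actn1 and Tpm2 were added after their values were seen. Not every gene these rules select is reported here. RefSeq promoters were matched by symbol. Positions of genes came from GENCODE on mm10.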

Additional observations from a re-analysis of the deposited data

Results flagged for a closer look

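In 22 of 350 groups of 4 libraries, 1 library stood farther from the rest than the Dixon criterion allows, and chance alone gives about 1 in 20. In P1, replicate 1 was low in muscle genes: Actn2 was at 110 RPKM (the others 329 to 395), Eno3 at 88.1 (165 to 188), Esrrg at 2.73 (9.23 to 11.1), Myl3 at 641 (1220 to 1320), Ryr2 at 6.09 (21.7 to 24.4) and Tnnt2 at 857 (1590 to 1790). The same library was high in Col3a1 with 401 RPKM (19 to 23.3) and in Postn with 634 (95.3 to 104). Its mean log2 level was 6.75 for cardiomyocyte markers (7.90 to 8.04), 5.33 for thick filament genes (6.53 to 6.58), 6.61 for fibroblast markers (3.72 to 3.88) and 5.64 for lysosome genes (5.18 to 5.24).

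In P3, replicate 1 was high in muscle genes: Myom1 was at 26.4 RPKM (6.46 to 7.59), Ryr2 at 9.84 (2.74 to 3.08), Slc8a1 at 11.6 (3.38 to 3.99), Asb2 at 4.79 (1.65 to 1.89) and Ppara at 1.17 (0.298 to 0.337). It was low in Prnd with 28.4 RPKM (59.5 to 67.7) and in Nfkbia with 44.8 (80.3 to 87.4), and its mean log2 level of cardiac transcription factors was 3.21 (2.70 to 2.72). In P1 replicate 4, Irgm1 was at 7.5 RPKM (3.66 to 4.14), and the mean log2 level of ribosome assembly genes was 4.64 (4.87 to 4.88).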

How the results depend on the processing

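Another pseudocount (0.1 or 1), no filter, or a filter of 1 RPKM in all 8 libraries left the counts of 107 higher and 86 lower within 1.5 times. The number of calls did not hold under other choices, and the cause was not tested. Quantile normalization gave 8 higher and 7 lower, an equal RPKM sum 197 and 191, and limma without trend 44 and 33. Array weights gave 511 and 976. Median-of-ratios scaling gave 39 higher, an equal sum without the 100 highest rows 66, and an adjusted p under 0.05 with no minimum change 167. All 15 libraries in 1 fit gave 493 lower. Leaving out 1 library at a time gave 0 to 415 higher and 0 to 855 lower, and leaving out both replicates 1 gave 637 and 1072. Under each alternative that gave a value, none of the 61 called genes named here reversed. Lost calls among them ran from 0 with array weights to 54 with quantile normalization and 61 with a replicate block.

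The replicate block gave 0 calls in either direction, with 2423 genes at an unadjusted limma p under 0.05. Same-numbered libraries deviated with correlations of -0.509, -0.050, -0.253 and 0.373, 1 of 4 P1 libraries correlated best with its own number, and nothing in the labels pairs them.

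Cdh2 had a change of -1.14 (limma adjusted p = 0.00126) without both replicates 1, where its adjusted p otherwise ranged from 0.00337 to 0.297. The adjusted p of Ctnnb1 ranged from 0.00453 to 0.209 over the alternatives, with no change reaching 1. Signs turned in 4 uncalled genes near 0. Eef1a1 had 0.16 with quantile normalization, 0.05 with an equal sum and -0.18 to 0.01 without 1 library. Pgam1 had 0.15, 0.06 and 0.05 with quantile normalization, an equal sum and array weights, -0.15 to 0.06 without 1 library and 0.08 without both replicates 1. Fos had -0.01 with quantile normalization or median-of-ratios scaling, and -0.16 to 0.31 without 1 library. Slc2a1 had -0.07 to 0.45 without 1 library.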
